A study of Mus musculus with 6 samples.

Results

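The transcription factors that set hepatocyte identity were followed in mouse hepatocytes sorted by the activity of the Axin2 promoter. The set held 9 genes chosen by name, of 17275 gene symbols with read counts: Hnf4a, Foxa1, Foxa2, Foxa3, Cebpa, Cebpb, Onecut1, Prox1 and Nr5a2. All 9 were found and all 9 were abundant enough to be tested. The 6 RNA libraries came from C57BL/6 mice of genotype Axin2rtTA;TetO-H2B-GFP, given as 8 weeks and as postnatal day 63. Both groups carried both transgenes and had doxycycline in the drinking water for 7 days. The Axin2 promoter drives the doxycycline-dependent activator, so cells in which it is active make a green fluorescent histone. Such a tagged histone is long-lived, and a cell can stay bright after the promoter falls silent. Hepatocytes freed of non-parenchymal cells were sorted into bright (Axin2-positive, 3 libraries) and dark (Axin2-negative, 3 libraries) cells. Each group used the same 3 sequencing indexes, so libraries are numbered 1, 2 and 3 by index, and each index holds 1 library of each group. Whether each library is a mouse of its own is not said in the labels. The p-values below therefore measure only the spread between these libraries, which may be technical in part. Reads of a Y-linked gene (below) place male RNA in index 2 alone, so the spread between indexes is not only technical.

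These proteins form a network in which most members bind the regulatory DNA of several others. HNF4A is a nuclear receptor needed for most hepatocyte-specific transcription, and the 3 FOXA proteins are forkhead factors that open closed chromatin for other regulators. C/EBPα (Cebpa) and C/EBPβ (Cebpb) are leucine zipper factors, the first tied to metabolic genes and quiescence, the second also induced by hormones, fasting, injury and inflammation. HNF6 (Onecut1) is a cut-homeodomain factor of hepatocytes and bile ducts, PROX1 a homeodomain factor of hepatocytes and lymphatic endothelium, and LRH-1 (Nr5a2) a nuclear receptor of bile acid and cholesterol metabolism. Hepatocytes differ along the path from portal to central vein, and Axin2 is a target of Wnt signalling, which is active near the central vein.

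The libraries held 75882611 to 103386648 reads assigned to genes. The 9 factors had 838 to 62164 reads in a library, and at 838 reads the counting error is 3.45%. Axin2 was at 2.40, 22.6 and 24.2 CPM (a count scaled by library depth) in libraries Axin2-positive 1, 2 and 3. In Axin2-negative 1, 2 and 3 it was at 3.04, 3.75 and 5.75 CPM. The central-vein gene Glul was at 88.0, 339 and 1050 CPM against 87.9, 46.9 and 119 CPM, and the portal gene Cyp2f2 at 1624, 6.17 and 18.8 CPM against 1653, 2159 and 1233 CPM. The library labelled Axin2-positive 1 thus goes against its label in the sorted gene, and every direction below that includes index 1 rests on that library. Both libraries of index 2 held the Y-linked gene Ddx3y (7164 and 6759 reads) and the other 4 held 0 to 3 reads. Index 2 is therefore the male index, and sex and index cannot be told apart.

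Of the 9 factors, Cebpb, Foxa1 and Cebpa had the lowest unadjusted p values between the sorted groups once the index was a block in the fit, so the DNA just before the start of these 3 genes is shown. Each run holds the 250 bases before the start in RefSeq (GRCm38.p6), read 5′ to 3′ on the gene's strand. For Foxa1 that start, and with it the window, lies inside the gene as annotated in GENCODE (57540628 to 57546916). Capitals mark matches to the motifs searched.
Cebpb, chr2:167688665-167688914, plus strand: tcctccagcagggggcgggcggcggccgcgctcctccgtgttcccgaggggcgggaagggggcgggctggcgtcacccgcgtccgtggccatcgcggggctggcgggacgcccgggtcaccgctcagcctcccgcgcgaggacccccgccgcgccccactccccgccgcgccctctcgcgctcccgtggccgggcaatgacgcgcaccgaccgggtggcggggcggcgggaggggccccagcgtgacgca
Cebpa, chr7:35119043-35119292, plus strand: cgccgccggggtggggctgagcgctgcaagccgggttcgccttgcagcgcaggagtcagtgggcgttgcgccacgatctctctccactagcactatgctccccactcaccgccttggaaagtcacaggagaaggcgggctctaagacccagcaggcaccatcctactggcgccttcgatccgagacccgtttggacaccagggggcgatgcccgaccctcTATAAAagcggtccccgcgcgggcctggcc
Foxa1, chr12:57546112-57546361, minus strand: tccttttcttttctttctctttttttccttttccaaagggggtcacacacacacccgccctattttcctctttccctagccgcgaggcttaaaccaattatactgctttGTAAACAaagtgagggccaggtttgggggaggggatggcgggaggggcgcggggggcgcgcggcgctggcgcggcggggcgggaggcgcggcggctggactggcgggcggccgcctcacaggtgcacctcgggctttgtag
The motifs, searched on both strands, were HNF4 (CAAAGTCCA), FOXA (TGTTTAC), C/EBP (TTGCNNAA), HNF6 (ATCGAT), LRH-1 (CAAGGTCA), TCF/LEF (CTTTGAT), HNF1, the cyclic AMP response element (TGACGTCA) and the TATA box (TATAAA). The Cebpa window held a TATA box 30 bases before the start. The Foxa1 window held a FOXA match on the other strand, at 141 bases before the start, and the Cebpb window held no match. Of all 32851 windows of this length, 12.4% held the TATA letters, 3.17% the FOXA letters and 9.56% the C/EBP letters. Over the 14 start sites listed for the 9 genes, 5 genes had a TATA match, 1 a FOXA match (Foxa1) and 1 a C/EBP match (Nr5a2), and none had letters of the other 6 motifs. These are counts of genes, some with several windows, whereas the shares above are of windows. The TATA letters lay on the gene's own strand in Cebpa and Foxa3 (36 bases before the start). They lay on the other strand in Nr5a2, Prox1 and Foxa2. The Cebpb window was 81.6% G or C, the Cebpa window 66.4% and the Foxa1 window 62.0%, against a median of 52.4% over all windows.

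Levels of different genes were compared per length, as CPM per kilobase of annotated exon. Cebpa and Hnf4a stood highest, at 130 ± 23.6 and 129 ± 11.8 (SD, n = 6 libraries each), and did not differ beyond their spread. Cebpb followed at 54.8 ± 26.7, and in index 1 (29.5 and 30.3) it overlapped Foxa3 (28.6 and 29.7). Foxa3 stood at 21.5 ± 6.61, Foxa2 at 14.0 ± 3.24, Nr5a2 at 12.9 ± 2.11, Prox1 at 10.97 ± 3.82 and Onecut1 at 9.97 ± 5.93. From Foxa2 to Onecut1 the neighbours in this order differed by less than their SD, while Foxa3 lay above Foxa2 by more than the SD of either. Foxa1 had the lowest mean, at 4.68 ± 1.10, and overlapped Onecut1 in index 3. The order was not the same in the authors' deposited table, where the mean FPKM of Cebpb (177) stood above that of Hnf4a (141) and that of Onecut1 (29.7) above that of Foxa3 (24.8).

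**Figure D1:**
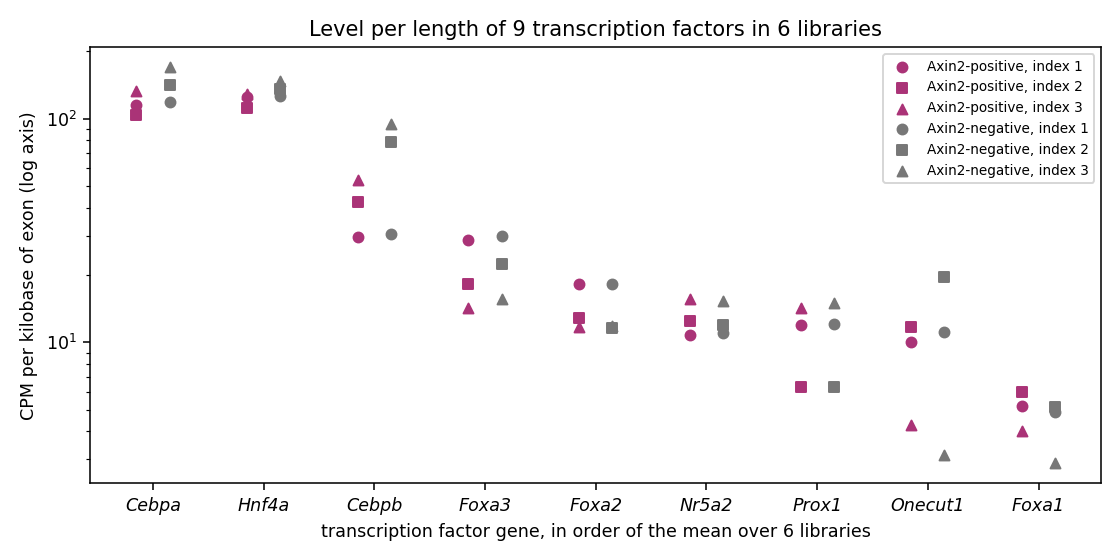
Level of each factor per kilobase of annotated exon (CPM per kilobase, log axis) in each library, with genes ordered by the mean over 6 libraries and the groups side by side. Cebpa and Hnf4a lie between 104 and 170 in every library, and Foxa1 between 2.87 and 6.02.

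Within the FOXA family the order was the same in every library. Foxa3 exceeded Foxa2 per length by 1.21 to 1.93 times and Foxa1 by 3.01 to 6.10 times. The ratio of Foxa3 to Foxa1 was 4.02 ± 1.32 in the Axin2-positive and 5.31 ± 0.880 in the Axin2-negative libraries (SD, n = 3 each), and the groups overlapped. Within each index it was lower in the Axin2-positive library, at 5.51 against 6.10, 3.01 against 4.36 and 3.54 against 5.46 in indexes 1, 2 and 3, a difference that was not tested. Cebpa exceeded Cebpb per length in all 6 libraries. That ratio was 3.90 in both libraries of index 1, 2.45 against 1.79 in the Axin2-positive and Axin2-negative libraries of index 2, and 2.51 against 1.79 in those of index 3.

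Cebpb showed the largest difference between the sorted groups. It is on chromosome 2 (167688915 to 167690418, GRCm38) and was at 44.3, 63.7 and 79.9 CPM in Axin2-positive 1, 2 and 3, against 45.6, 118 and 143 CPM in Axin2-negative 1, 2 and 3. The libraries of index 1 were nearly equal, and in indexes 2 and 3 the Axin2-negative library was 1.86 and 1.79 times higher. The groups overlapped, because both libraries of index 1 lay below all others. Group means were 62.6 ± 17.8 and 102 ± 50.5 CPM (SD, n = 3 each), and the log2 fold change over 6 libraries was -0.71 (SE 0.45), with an adjusted p of 0.999 by Benjamini-Hochberg after the quasi-likelihood test of edgeR. With the index as a block it was -0.59 (SE 0.19, unadjusted p = 0.0261, edgeR adjusted p = 0.450).

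Cebpa, on chromosome 7 (35119293 to 35121928), gave 303, 273 and 351 CPM in Axin2-positive 1, 2 and 3 and 311, 372 and 447 CPM in Axin2-negative 1, 2 and 3. The Axin2-negative library was higher by 1.03, 1.36 and 1.27 times in indexes 1, 2 and 3, and the groups overlapped. The log2 fold change was -0.29 (SE 0.18; edgeR adjusted p = 0.999).

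Fits of 2 indexes with the index as a block were also made, leaving out each index in turn. Leaving out index 1, in which the sort check failed, was chosen with earlier results of these data known, so its calls are no independent evidence of a difference, and it has 1 residual degree of freedom. In it Cebpb was called lower (log2 fold change -0.86, SE 0.095; edgeR adjusted p = 0.0126), 1 of 9 factors, where 4.01% of all 12385 genes tested were called lower. No factor was called higher, where 3.43% of all genes were. Cebpa came next (-0.40, SE 0.11; edgeR adjusted p = 0.0913), then Foxa1 (0.35, SE 0.11; edgeR adjusted p = 0.121). Without index 2 or without index 3 no gene was called in either direction.

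The deposited Cuffdiff values, which describe the same sorted groups and are no independent evidence, pointed the same way for Cebpb. In the authors' deposited table it stood at 146 FPKM (a level scaled by transcript length and depth) in Axin2-positive and 207 FPKM in Axin2-negative cells, with a p-value of 0.0346 and a q-value of 0.9995. The same authors' deposited table gave Cebpa 178 and 220 FPKM with a p-value of 0.287. The gene Tmem189 overlaps Cebpb on the opposite strand in GENCODE annotation, with 253, 1267 and 1339 reads in the Axin2-positive libraries against 289, 939 and 724. Whether the count table kept the strands apart is not given in the sources used here, and the part of these reads in the Cebpb counts was not tested.

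Kupffer cells, the liver's macrophages, also express Cebpb. The median log2 difference of their tested markers was -2.20 and -2.42 in indexes 2 and 3. Of 13 Kupffer genes listed, 12 were in the table and 10 were tested. In the fit without index 1, 7 were called lower, where 4.01% of all genes were. The summed level of the Kupffer genes was 34.5, 96.4 and 43.9 CPM in Axin2-positive 1, 2 and 3. In Axin2-negative 1, 2 and 3 it was 34.6, 106 and 72.3 CPM. Most of it came from Mpeg1 (30.1 to 101 CPM). The sum thus follows mainly Mpeg1, whereas the median differences above count each tested marker alike. Clec4f, a defining Kupffer gene, was at 1.05, 0.101 and 1.24 CPM in the Axin2-positive libraries against 0.909, 1.13 and 7.25 CPM. Marco and C1qb were at 0 in Axin2-positive 2, and no Kupffer gene was at 0 in all libraries. The part of these cells in the Cebpb values was not tested. In bulk RNA of sorted cells, fewer cells of a type and less RNA per cell cannot be told apart.

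Cebpb is also known to respond to stress, so immediate-early genes, which rise when tissue is dissociated, were read beside it. Of 24 listed, 23 were tested and 0 were called over 6 libraries, with a median log2 fold change of -0.19 against -0.0047 over all genes tested. List medians within indexes 1, 2 and 3 were -0.02, -0.37 and -0.41. In the fit without index 1, 22 were tested, with 7 called lower and 0 higher, beside 4.01% and 3.43% of all genes. The 7 were Jun, Junb, Jund, Egr2, Ier2, Nr4a1 and Btg2. Junb was at 383, 127 and 188 CPM in the positive libraries and 397, 269 and 302 CPM in the negative ones. Like Cebpb, Junb was lower in the Axin2-positive library of indexes 2 and 3. Unlike Cebpb, Junb was highest in index 1 in both groups. A response shared by Cebpb and these genes was not tested. The direction of the list as a whole does not carry to each member, since Dusp6 was at 224 and 230 CPM in Axin2-positive 2 and 3 against 88.2 and 155 CPM.

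Hnf4a, on chromosome 2 (163506808 to 163572910), was the steadiest of the 9. It was at 604, 537 and 624 CPM in Axin2-positive 1, 2 and 3, and at 608, 652 and 709 CPM in Axin2-negative 1, 2 and 3. The highest library exceeded the lowest by 1.32 times, and only Axin2-positive 3 kept the groups from separating by its place above Axin2-negative 1. Group means were 588 ± 45.6 and 656 ± 50.7 CPM (SD, n = 3 each). The log2 fold change was -0.16 (SE 0.13; edgeR adjusted p = 0.999), and -0.23 (SE 0.11; edgeR adjusted p = 0.233) without index 1.

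Among the forkhead factors Foxa1 and Foxa2 had positive fold changes and Foxa3 a negative one, none of which passed the test. Foxa1, on chromosome 12 (57540628 to 57546916), was at 17.3, 20.04 and 13.3 CPM in the Axin2-positive libraries and at 16.2, 17.1 and 9.55 CPM in the dark-sorted, Axin2-negative ones. The Axin2-positive library was higher in each index, by 1.07, 1.17 and 1.39 times, while the groups overlapped. The log2 fold change was 0.24 (SE 0.26; edgeR adjusted p = 0.999), and it was 0.02 without Axin2-negative 3. With the index as a block it was 0.26 (SE 0.10, unadjusted p = 0.0459, edgeR adjusted p = 0.450). At an unadjusted p under 0.05 this blocked fit listed 2 of the 9 factors, Cebpb and Foxa1, where it listed 9.17% of all genes tested.

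Foxa2, on chromosome 2 (148042877 to 148046969), was at 43.0, 30.3 and 27.7 CPM in the Axin2-positive and at 43.2, 27.5 and 27.9 CPM in the Axin2-negative libraries. Both libraries of index 1 stood above the other 4. The log2 fold change was 0.03 (SE 0.25; edgeR adjusted p = 0.999), and its sign turned when single libraries were left out. Foxa3, on chromosome 7 (19013284 to 19023538), was at 58.3, 37.0 and 28.8 CPM against 60.6, 45.7 and 31.9 CPM. It was lower in the Axin2-positive library of each index, by less than the steps from index to index. Its log2 fold change was -0.15 (SE 0.33; edgeR adjusted p = 0.999), likewise with a sign that turned with the library left out.

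Onecut1, Prox1 and Nr5a2 gave no common direction. Onecut1, on chromosome 9 (74861921 to 74891781), was at 41.1, 48.2 and 17.5 CPM in Axin2-positive 1, 2 and 3 against 45.8, 80.4 and 12.9 CPM. It was lower in the Axin2-positive library of index 2 (log2 difference -0.74) and higher in that of index 3 (0.45). Its log2 fold change over 6 libraries was -0.38 (SE 0.68; edgeR adjusted p = 0.999), and it was -0.82 without Axin2-negative 3 and 0.28 without Axin2-negative 2.

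Prox1, on chromosome 1 (190118035 to 190170714), was at 100.5, 52.7 and 119 CPM against 101, 52.8 and 126 CPM, nearly equal within each index. Nr5a2, also on chromosome 1 (136842571 to 136960448), was at 63.6, 73.2 and 92.5 CPM against 65.2, 70.4 and 90.0 CPM. Their log2 fold changes were -0.04 (SE 0.41) and 0.02 (SE 0.19), each with an edgeR adjusted p of 0.999. The sign of both turned when single libraries were left out. In the authors' deposited table a single Nr5a2 transcript of 2 carried nearly all of the signal, at 17.8 FPKM in both groups, against 0.706 and 0.233 FPKM for the other.

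**Figure D2:**
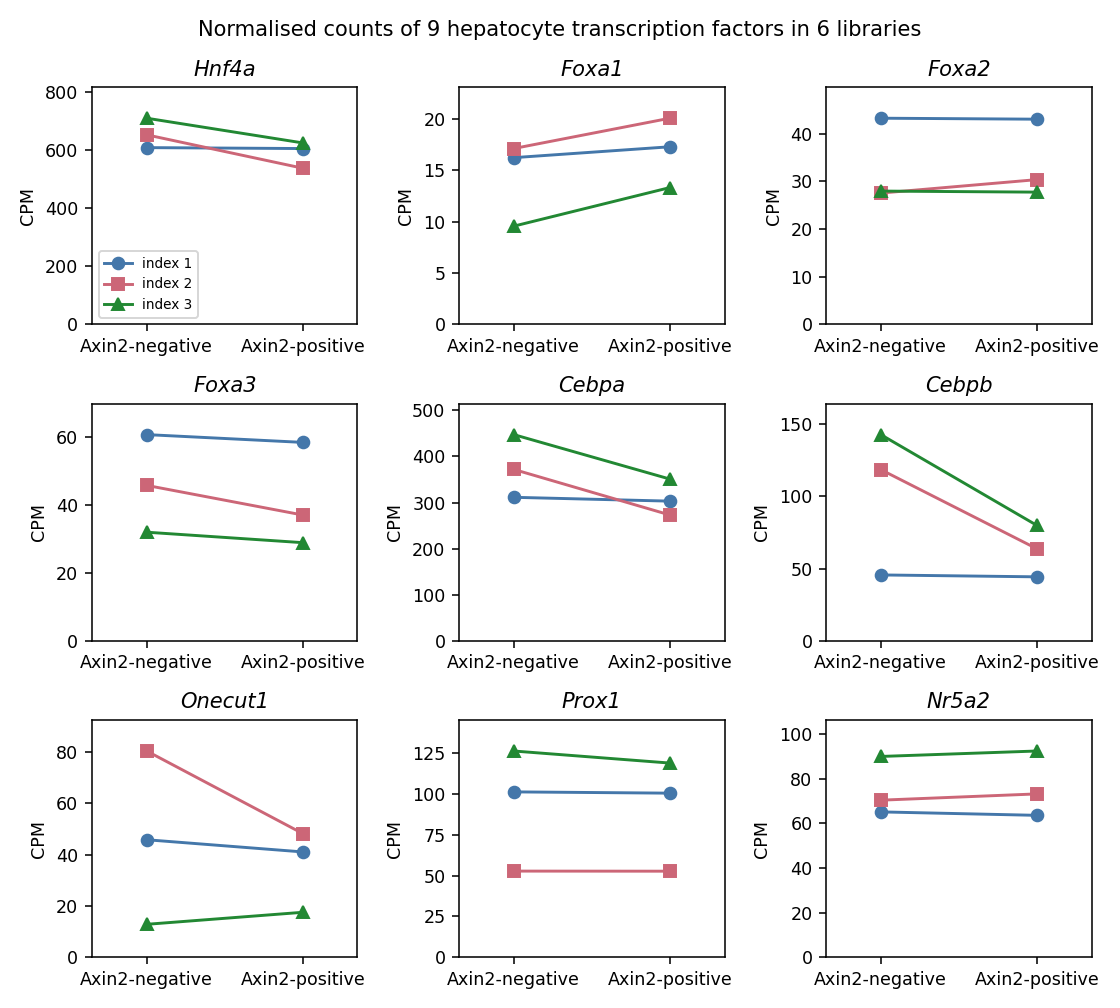
CPM of each factor (vertical axes, each starting at 0) in the Axin2-negative and Axin2-positive library of each index, joined by a line. Lines of index 1 are nearly flat, Cebpb falls in indexes 2 and 3 (118 to 63.7 and 143 to 79.9 CPM), and for Onecut1, Prox1 and Foxa3 the lines are set apart by index.

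Over all 9 factors the fit of 6 libraries called 0 higher and 0 lower, as it called 0% of the 12343 genes tested in either direction. It did not call the genes of the sort check either. Axin2 (log2 fold change 1.97), Glul (2.54) and Cyp2f2 (-1.61) each had an edgeR adjusted p of 0.999. Such a value for a factor therefore does not show equal levels. Without adjustment, 279 genes (2.26%) had a p under 0.05 in edgeR, none of the 9 among them, and their lowest p was 0.163 (Cebpb). The count called was 0 in DESeq2 and in limma-voom too, where 432 and 238 genes had an unadjusted p under 0.05. The fold change was negative for 6 factors and positive for 3, with a median of -0.15 on the log2 scale. The median size was 0.16, beside 0.14 over all genes tested. The groups of 3 were separate in CPM for 0 of the 9 factors and for 7.21% of all genes tested.

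Within an index, the median size of the log2 difference over the 9 factors was 0.04, 0.28 and 0.18 in indexes 1, 2 and 3, beside 0.06, 0.25 and 0.21 over all genes tested. The sign was the same in all 3 indexes for 6 factors (Hnf4a, Foxa1, Foxa3, Cebpa, Cebpb and Prox1), against 39.6% of all genes, and in indexes 2 and 3 for 7 factors, against 71.7%. For Prox1 and Hnf4a the difference in index 1 was under 0.02. Past a fold of 1.5 in either direction lay 0, 2 and 1 factors in indexes 1, 2 and 3, where 3.31%, 20.2% and 16.5% of all genes did. These were Cebpb in indexes 2 and 3 and Onecut1 in index 2. Cebpb was more than 1.5 times lower in both, as were 6.64% of all genes. By size its differences lay at percentile 88.1 and 90.1 of all genes in indexes 2 and 3.

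**Figure D3:**
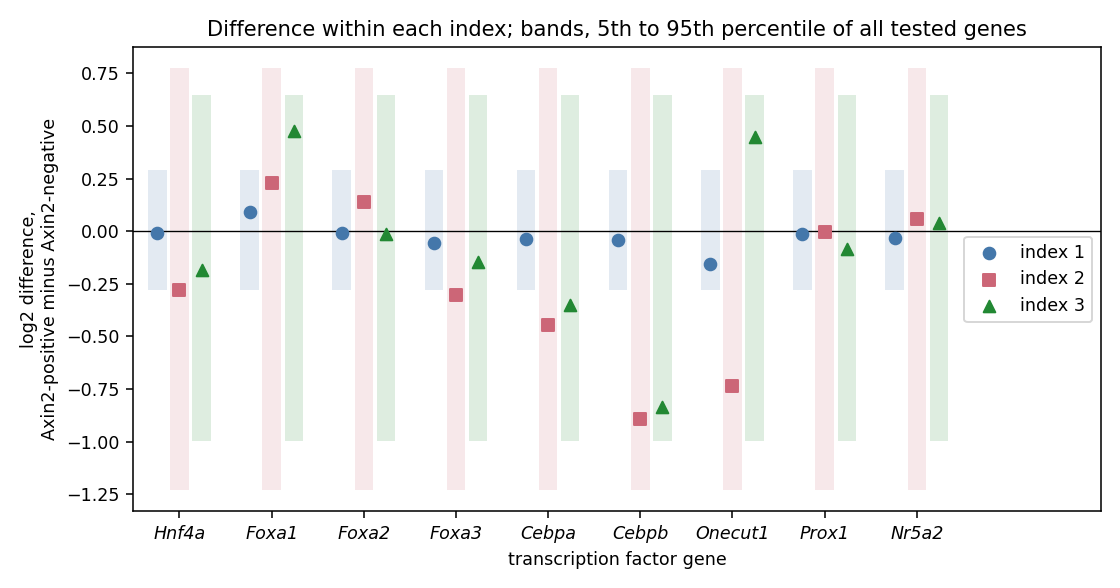
Log2 difference in CPM between the Axin2-positive and Axin2-negative library of each index for each factor (points), with bands from the 5th to the 95th percentile of all tested genes in that index. All 27 points lie inside their bands, and Cebpb reaches -0.89 and -0.84 in indexes 2 and 3.

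Several factors differed between the indexes. This comparison was added after the data were seen, as an edgeR quasi-likelihood F test of the index with the group as a term. It called 6 of the 9 factors (Foxa1, Foxa2, Foxa3, Onecut1, Prox1 and Nr5a2), where 11.1% of all genes tested were called. Onecut1 had index means of 43.5, 64.3 and 15.2 CPM, 4.23 times between the extremes (edgeR adjusted p = 0.0354). Prox1 had 101, 52.7 and 123 CPM, lowest in the male index (edgeR adjusted p = 0.0108), and Foxa3 had 59.4, 41.3 and 30.4 CPM (edgeR adjusted p = 0.0165). Cebpb had 44.95, 91.1 and 111 CPM but did not pass (edgeR adjusted p = 0.0620), nor did Hnf4a (edgeR adjusted p = 0.573) or Cebpa (edgeR adjusted p = 0.223).

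The highest index mean was at least 2 times the lowest for 3 factors (Onecut1, Cebpb and Prox1), against 18.4% of all genes tested. The number of factors called depended on single libraries. It was 0 without Axin2-positive 3 (0.772% of all genes called) or without Axin2-negative 3 (0.8%), 2 without Axin2-positive 2 (3.03%) and 3 without Axin2-negative 2 (4.54%). Without Axin2-positive 1 it was 6 (13.1%) and without Axin2-negative 1 it was 7 (21.3%), so the count of factors moved with the share of all genes called. Such a fit leaves 1 residual degree of freedom.

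Endothelial markers moved with Prox1 across the indexes. All 14 listed genes were in the table and tested, and 0 were called between the groups. Their summed level was 76.6, 3.27 and 77.9 CPM in the Axin2-positive and 74.8, 8.24 and 107 CPM in the Axin2-negative libraries, lowest in both libraries of index 2. Flt4, a receptor of lymphatic and sinusoidal endothelium, was at 0.0507 and 0.174 CPM in index 2 and at 3.57 to 5.91 CPM elsewhere. Cdh5, Lyve1, Tek and Flt1 were at 0 in at least 1 library. Bile duct markers, which matter for Foxa2 and Onecut1, were highest in index 1. Their sum over 10 listed genes was 15.1 to 34.0 CPM in the Axin2-positive and 22.9 to 34.9 CPM in the Axin2-negative libraries, 4 of the 10 were tested, and the duct keratin Krt19 had at most 0.115 CPM. The part of these cells in the values of Prox1, Foxa2 and Onecut1 was not tested.

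**Figure D4:**
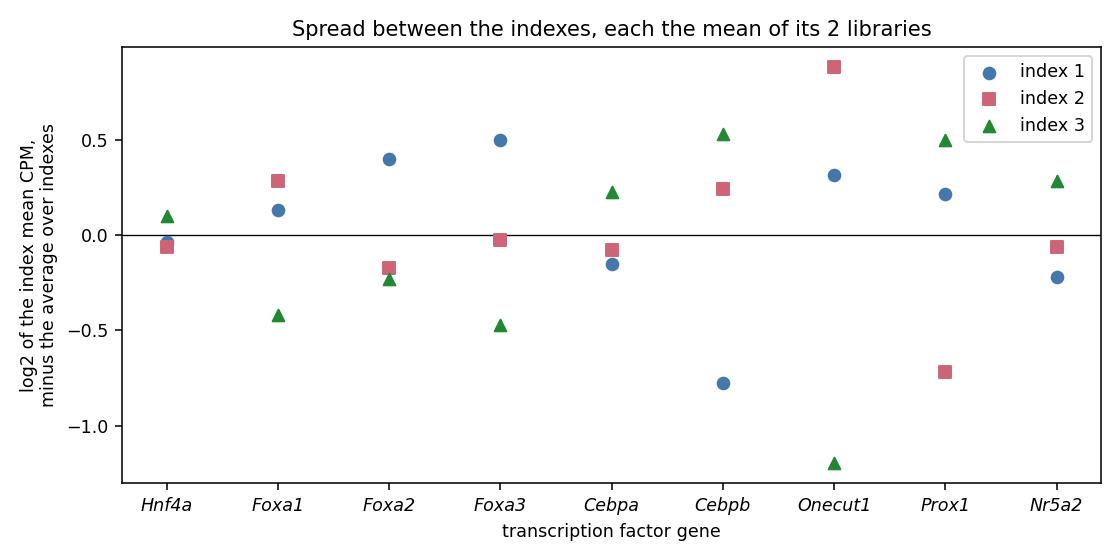
Log2 of the mean CPM of the 2 libraries of each index, minus the average over the 3 indexes, for each factor. Onecut1 spans 15.2 to 64.3 CPM and Prox1 52.7 to 123 CPM, while the index means of Hnf4a stay between 594 and 666 CPM.

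The closest patterns to each factor were sought among 10526 other tested genes of at least 1 CPM, by Pearson correlation of log2 CPM over the 6 libraries, as a description. Closest to Hnf4a was Pck1 (r = 0.995), the gluconeogenic enzyme gene, at 2869, 1685 and 3052 CPM against 2906, 3961 and 5097 CPM, then Etv6 (r = 0.994). Closest to Cebpa were Gpt, which encodes alanine aminotransferase (r = 0.998), and the glutamine transporter gene Slc38a3 (r = 0.994). Slc38a3 was at 1536, 1298 and 1862 CPM against 1566, 2165 and 2629 CPM. Closest to Cebpb were Sorbs3 (r = 0.995) and Hspa9 (r = 0.994). These genes, like Cebpa and Cebpb, had their highest values in Axin2-negative 2 and 3.

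The neighbours of the other factors were as follows. For Foxa3 they were Zbtb16 (r = 0.997) and Serpina1c (r = 0.996, a member of a family of near-identical genes whose counts are uncertain). For Foxa2 they were Faim2 (r = 0.997) and the fatty acid elongase gene Elovl6 (r = 0.995), and for Prox1 the interferon factor gene Irf1 (r = 0.9998) and Manea (r = 0.997). Onecut1 had Atf6b and Lrrc16a (r = 0.997 each), Nr5a2 had BC031353 (r = 0.998) and the taurine transporter gene Slc6a6 (r = 0.995), and Foxa1 had 2810002N01Rik (r = 0.996) and 1810006K21Rik (r = 0.995). The 6 points share 3 indexes, and a coefficient this high was found for each of the 9 factors.

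Other liver-enriched transcription factors gave mostly negative fold changes of small size. Of 56 listed genes 54 were tested, 14 with a positive and 40 with a negative log2 fold change. The median was -0.11 against -0.0047 over all genes tested, and 0 were called in either direction. The lowest p values belonged to Zhx2, a repressor of fetal liver genes, and to Klf9, Rxrb and Nr2f6. Zhx2 was at 14.5, 13.9 and 11.8 CPM in the Axin2-positive libraries against 16.2, 19.5 and 17.0 CPM, so the groups were separate (log2 fold change -0.39, SE 0.12; edgeR adjusted p = 0.999). Rxrb, a partner of many nuclear receptors, gave 27.5, 22.7 and 22.9 CPM against 28.2, 27.7 and 27.1 CPM.

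Without index 1, 2 of these 54 factors were called higher and 8 lower (edgeR), beside 3.43% and 4.01% of all genes. Higher were Nr1i3, the xenobiotic receptor CAR, at 143 and 198 CPM in Axin2-positive 2 and 3 against 80.9 and 126 CPM, and Tbx3, a known Wnt target, at 24.5 and 41.0 against 7.04 and 15.5 CPM. Lower were Zhx2, Srebf1, Foxq1, Tcf7l1, Sox9, Dbp, Bhlhe40 and Cux2. Tcf7l1, a repressor of Wnt targets, was at 0.279 and 0.395 against 5.31 and 5.06 CPM. Sox9, a biliary and portal factor, was at 0.0633 and 0.0465 against 1.67 and 0.923 CPM. Srebf1, the lipogenic regulator, was at 260 and 346 against 495 and 507 CPM. Cux2, known as female-biased in liver, had 0 reads in both libraries of the male index, so its call rests on index 3 alone (6.12 against 35.02 CPM).

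**Figure D5:**
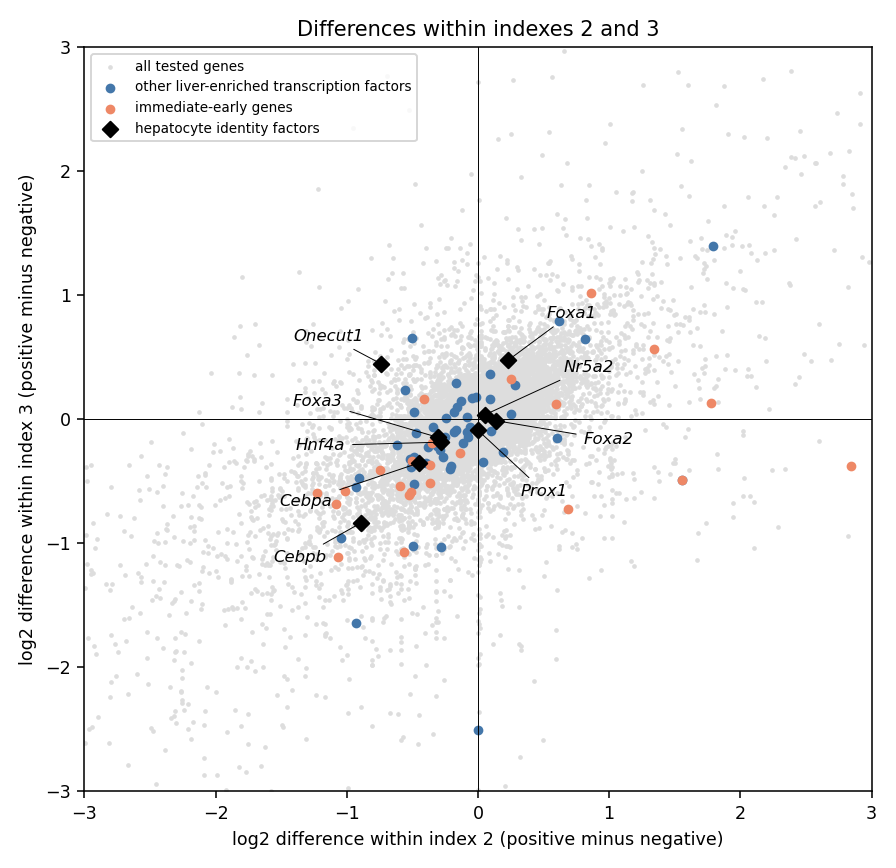
Log2 difference (Axin2-positive minus Axin2-negative) within index 2 and within index 3 for all tested genes (grey), other liver-enriched transcription factors (blue), immediate-early genes (orange) and the 9 identity factors (black). Axes stop at 3 on the log2 scale, which leaves out 169 genes, Sox9 and Tcf7l1 among them, and Cebpb lies at -0.89 and -0.84.

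Genes known as targets of the 9 factors were read in the same way. Of 35 listed, 34 were in the table and tested, 11 with a positive and 23 with a negative log2 fold change (median -0.15), and 0 were called over 6 libraries. Without index 1, Cyp7a1, the rate-limiting enzyme of bile acid synthesis, was called higher, at 432 and 457 CPM in Axin2-positive 2 and 3 against 177 and 210 CPM. Among all genes this fit called 3.43% higher and 4.01% lower. From the list, 7 genes were called lower: Apoa1, Apoa4, Pck1, G6pc, Tat, Cyp8b1 and Scarb1 (edgeR). Of these, Pck1 and G6pc serve gluconeogenesis and Tat tyrosine breakdown. Pck1 is also among 8 genes listed as markers of periportal hepatocytes. The same fit called all 8 of these lower, and all 8 listed markers of pericentral hepatocytes higher. Whether the called targets followed any of the 9 factors was not tested. G6pc was at 1396 and 542 against 2140 and 886 CPM, and Tat at 2146 and 2675 against 2881 and 3726 CPM. Cyp8b1, another bile acid enzyme gene, was at 312 and 103 against 562 and 158 CPM.

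Other genes of the target list, Alb and Ttr among them, gave no call in any of these fits. Alb, the albumin gene, was at 68538 and 94022 CPM in Axin2-positive 2 and 3 against 60076 and 124270 CPM, and Ttr, the transthyretin gene, at 7904 and 6023 against 6040 and 5153 CPM. Apoh, Slc2a2, Scarb1 and Pck1 had the lowest p values of the target list over 6 libraries. Apoh was at 2159, 2703 and 2490 CPM against 2144, 1757 and 2020 CPM, so its groups were separate (log2 fold change 0.31, SE 0.16; edgeR adjusted p = 0.999). Slc2a2, the hepatocyte glucose transporter gene, gave 409, 299 and 284 CPM against 409, 409 and 439 CPM.

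Coregulators of the factors were the last list. All 20 were tested, 4 with a positive and 16 with a negative log2 fold change (median -0.14), and 0 were called. Ncoa1, Kdm6b, Ppargc1b and Trib1 had the lowest p values. Without index 1, 3 were called lower and 0 higher (edgeR), beside 4.01% and 3.43% of all genes. The 3 were Ppargc1a, Ppargc1b and Trib3. Ppargc1a, which encodes the fasting-induced coactivator PGC-1α of HNF4A, was at 1.55 and 9.33 CPM in Axin2-positive 2 and 3 against 7.39 and 20.6 CPM, and at 10.2 and 10.6 CPM in index 1. Trib3 was at 2.74 and 9.49 against 4.87 and 14.9 CPM. Ncoa1 was at 22.2 CPM in all 3 Axin2-positive libraries and at 22.4, 27.3 and 25.8 CPM in the Axin2-negative ones.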

How the data were processed

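RNA was sequenced from sorted hepatocytes with a stranded mRNA kit, per the labels' protocols. For every library the authors deposited 1 table of counts, whole reads by gene symbol. The submitters' processing notes name TopHat2 2.0.11 and the build mm10. How reads were counted, and whether by strand, is not given in the sources used here. The authors also deposited FPKM values, 1 per group and transcript, with p-values and q-values, per the file headers. The notes name Cuffdiff 2.2.2.

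Counts of all 17275 genes were tested with edgeR 4.0.16 (R 4.3.3). Low genes were removed by its filterByExpr, libraries were scaled by TMM, and the group was tested by quasi-likelihood with Benjamini-Hochberg adjustment at 0.05, and SE is the size of the log2 fold change over the square root of F. Differences within an index use an offset of 0.05 CPM. DESeq2 1.42.0, limma-voom (limma 3.58.1), other scalings and filters, the index as a block and left-out libraries were alternatives. Scripts were tested on simulated data. Deviations from group means correlated across genes at 0.679, 0.815 and 0.756 between libraries sharing an index, so the index was taken to pair them, although Axin2-positive 1 and Axin2-negative 3 also reached 0.161. Exon lengths and coordinates come from GENCODE M21 (GRCm38), which matched 89.3% of symbols.

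The 9 genes, the lists and the fits of 2 indexes were chosen with earlier results of these data known. Named genes are the 9 factors, the 4 lowest p values and any called gene of each list, the 2 closest patterns to each factor, and Axin2, Glul, Cyp2f2 and Ddx3y. Among immediate-early genes the 4 lowest p values also include Socs3, whose levels are not given above. Clec4f, Mpeg1, Flt4, Krt19, Alb and Ttr were named after their values were seen, from the lists.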

Additional observations from a re-analysis of the deposited data

How the results depend on the processing

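Over 6 libraries no gene was called higher or lower under any scaling, filter, tool, the stricter threshold or the replicate block. Leaving out single libraries gave 0 to 1 genes higher and 0 to 5 lower, and leaving out both libraries of index 1, with the replicate block, gave 425 and 497. Over 17 alternatives each, Hnf4a (-0.23 to -0.09), Cebpa (-0.41 to -0.14), Cebpb (-1.06 to -0.39) and Foxa1 (0.02 to 0.39, lowest without Axin2-negative 3) kept their sign. Cebpb was called only without index 1 (-0.86, edgeR adjusted p = 0.0126). The other 5 factors changed sign under at least 1 alternative. Without single libraries the log2 fold change ran from -0.18 to 0.28 for Foxa2, -0.49 to 0.092 for Foxa3, -0.82 to 0.28 for Onecut1, -0.33 to 0.24 for Prox1 and -0.14 to 0.18 for Nr5a2. Leaving out index 2 with the replicate block gave -0.0087 for Foxa2 and 0.14 for Onecut1, and upper quartile scaling gave -0.0010 for Nr5a2. With the replicate block over 6 libraries, no factor changed its call. Of 54 recomputed differences within an index, 52 moved by less than the spread over indexes, and the other 2 were Prox1 and Nr5a2 in index 2 on library totals. Differences between indexes were called for 1364 genes, 4729 with DESeq2 and 97 to 2679 without single libraries. The count of factors was 0 to 7 without single libraries, 7 with limma-voom and 8 with DESeq2.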

Other observations

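The count table and the authors' deposited table do not rank the factors alike. Among 8247 genes with 1 listed transcript, the mean of the deposited FPKM values exceeded the mean CPM per kilobase by a median of 1.54 times. The ratio was 1.09 for Hnf4a, 1.53 for Cebpa, 2.98 for Onecut1 and 3.22 for Cebpb, the last at percentile 89.6 of these genes. In the authors' deposited table Cebpb therefore stood above Hnf4a (207 against 149 FPKM in Axin2-negative cells), whereas by counts per length Hnf4a exceeded Cebpb in every library. The cause was not tested.

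The clock-controlled factor Dbp also differed between the indexes, at 0.329 and 0.376 CPM in index 1, 6.99 and 13.2 CPM in index 2 and 40.8 and 56.5 CPM in index 3 (Axin2-positive and Axin2-negative; edgeR F test of the index, adjusted p = 0.00238). Like Cebpb, it was lowest in index 1 and highest in Axin2-negative 3. Cebpb did not pass the same test (edgeR adjusted p = 0.0620), and a link between Dbp and Cebpb was not tested.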
